A study of Mus musculus with 12 samples.

Results

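The regions described here are stretches of open chromatin that were called as peaks in all 3 libraries of AT2 cells from the CT26 metastatic niche and in none of the 3 libraries of AT2 cells from distal lung of the same tumour model. Peaks of all 12 libraries were merged where they overlapped by at least 1 bp, which gave 83727 regions on the autosomes and X. Of these, 1303 (1.56%) had the CT26 pattern, and 292 were left out because at least 5 of the 6 niche libraries and at most 1 of the 6 distal libraries of both tumour models held them. The remaining 1011 regions (1.21% of all regions) are the subject. They were chosen by the CT26 calls, so the difference between CT26 niche and CT26 distal is part of their definition and is described without a test. The leaving out also read the 4T1 libraries, and results that it could shape are given for all 1303 regions.

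Open chromatin was mapped by Omni-ATAC-seq. In this assay a transposase, Tn5, inserts sequencing adapters wherever DNA in the nucleus is accessible. Each library came from 50000 alveolar type II (AT2) cells sorted by flow cytometry. The donors were BALB/c mice between 6 and 8 weeks old, whose lungs were taken 7 days after labelled tumour cells (800000 per mouse) had been given by tail vein. Mice received either 4T1, a mammary carcinoma line of BALB/c origin, or CT26, a colon carcinoma line of BALB/c origin. From each tumour model, AT2 cells of the metastatic niche (4T1 Niche, CT26 Niche) and of lung distal to it (4T1 Distal, CT26 Distal) gave a group, 4 in all. Each group had 3 independent samples, each a pool of 5 lungs, and no group of mice without tumour cells is among the samples used here.

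AT2 cells make and secrete surfactant, and they also act as progenitors that divide and give rise to the flat AT1 cells after injury. A peak in an accessibility assay marks DNA that nucleosomes leave free, as promoters and enhancers do when regulatory proteins bind them. Interferon-inducible GTPases, to which several of the regions lie close, are host defence proteins whose genes are switched on by STAT and IRF factors that bind the GAS and ISRE elements. AP-1, a dimer of Fos and Jun family proteins, binds a short palindrome at many stress-responsive enhancers.

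The working name of the set, regions gained only in the CT26 niche, held for few of its regions. No peak in any 4T1 library was found for 14 of the 1011 (1.38%, 95% Wilson interval 0.827 to 2.31%), against 4.75% of all 83727 regions. All 6 4T1 libraries, the distal ones included, held 570 (56.4%, interval 53.3 to 59.4%), close to the 55.0% of all regions and against 43.7% of the 1303 regions before the leaving out. At least 2 of the 3 4T1 Distal libraries held 935 (92.5%), a share that the leaving out raises by its construction: before it the share was 71.8%, against 66.3% of all regions. The regions are called here by their rule, as regions absent from the CT26 Distal lists. The intervals cover counting of regions only, and neighbouring peaks are not independent.

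A small part of the regions overlapped the promoter window of an annotated gene. A RefSeq promoter window (GRCm38.p6, 250 bases before to 50 after a start) overlapped 54 of the 1011 regions (5.34%), with 59 windows of 56 symbols among 32585 windows used. Printed here are 4 windows with an ISRE core inside the region, 1 with a pair of AP-1 matches and 1 from the highest-ranked region that no 4T1 library held. Calhm6 and Stat4 were added after their sequences had been seen. Capitals mark matches, on either strand, to the ISRE core (GAAA, 2 bases of any kind, GAAA), GAS (TTCNNNGAA) or AP-1 (TGANTCA), and all sequences run 5′ to 3′ along the gene's strand.
Gm12250 (also named Irgb10, an interferon-inducible GTPase), chr11:58183593-58183892, + strand: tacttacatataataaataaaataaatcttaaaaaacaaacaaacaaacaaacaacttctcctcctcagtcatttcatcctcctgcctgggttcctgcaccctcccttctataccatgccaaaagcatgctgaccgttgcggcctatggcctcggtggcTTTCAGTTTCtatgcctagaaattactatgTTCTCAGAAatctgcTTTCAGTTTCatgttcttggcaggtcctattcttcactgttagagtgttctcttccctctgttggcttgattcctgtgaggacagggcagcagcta
Parp11 (a mono-ADP-ribosyltransferase), chr6:127446590-127446889, + strand: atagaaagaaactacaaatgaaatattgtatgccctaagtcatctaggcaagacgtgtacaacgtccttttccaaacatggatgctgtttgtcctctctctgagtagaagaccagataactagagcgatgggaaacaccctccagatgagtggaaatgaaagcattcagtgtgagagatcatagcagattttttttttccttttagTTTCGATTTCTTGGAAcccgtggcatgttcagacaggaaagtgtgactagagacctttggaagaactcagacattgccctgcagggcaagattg
Calhm6 (a calcium homeostasis modulator family member), chr10:34127923-34128222, - strand: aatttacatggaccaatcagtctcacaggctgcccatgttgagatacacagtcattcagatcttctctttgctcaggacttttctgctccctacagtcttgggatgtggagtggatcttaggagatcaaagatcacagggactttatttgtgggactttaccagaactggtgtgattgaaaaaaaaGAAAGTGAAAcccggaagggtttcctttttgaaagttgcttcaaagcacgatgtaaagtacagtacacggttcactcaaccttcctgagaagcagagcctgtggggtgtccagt
Stat4 (a transcription factor of interleukin-12 signalling), chr1:52007990-52008289, + strand: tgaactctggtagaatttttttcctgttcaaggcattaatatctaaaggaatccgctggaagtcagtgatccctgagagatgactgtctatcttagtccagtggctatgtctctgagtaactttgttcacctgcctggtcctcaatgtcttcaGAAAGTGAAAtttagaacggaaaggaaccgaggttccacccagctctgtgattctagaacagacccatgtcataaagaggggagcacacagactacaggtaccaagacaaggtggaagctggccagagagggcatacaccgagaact
Egfros (a non-coding RNA that starts within Egfr, the receptor of epidermal growth factor), chr11:16830629-16830928, - strand: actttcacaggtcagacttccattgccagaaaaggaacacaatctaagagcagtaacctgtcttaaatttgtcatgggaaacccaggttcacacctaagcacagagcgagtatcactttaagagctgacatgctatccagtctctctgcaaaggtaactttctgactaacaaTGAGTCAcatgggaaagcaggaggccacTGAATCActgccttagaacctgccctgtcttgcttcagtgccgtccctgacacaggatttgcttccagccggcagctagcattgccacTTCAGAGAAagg
Ppp1r10 (a nuclear regulatory subunit of protein phosphatase 1), chr17:35919022-35919321, + strand: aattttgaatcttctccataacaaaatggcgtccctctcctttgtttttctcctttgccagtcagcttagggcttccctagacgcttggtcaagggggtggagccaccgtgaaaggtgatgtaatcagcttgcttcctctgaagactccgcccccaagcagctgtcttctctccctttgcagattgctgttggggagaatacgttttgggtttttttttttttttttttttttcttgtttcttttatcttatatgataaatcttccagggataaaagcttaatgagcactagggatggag

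In these windows the regions covered bases 1 to 300 at Gm12250, Parp11 and Egfros, 140 to 300 at Calhm6, 141 to 300 at Stat4 and 1 to 185 at Ppp1r10. The ISRE matches begin at bases 160 and 205 in Gm12250, 207 in Parp11, 187 in Calhm6 and 154 in Stat4. GAS matches begin at base 190 in Gm12250, between its ISRE matches, and at base 214 in Parp11, where GAS and ISRE share bases. Over all 59 windows, 7 (11.9%) held the ISRE core, against 2.94% of the 15896 windows that overlap any region and 3.45% of all 32585 windows. Of the 166 windows at other regions held by exactly 3 of the 6 CT26 libraries, 3.01% held it. The AP-1 letters stood in 12 windows (20.3%), against 5.62% of windows at any region, 7.85% of all windows and 7.23% of the 166. The 12 count 2 overlapping Egfros windows with the same pair of matches, and in Gm15417 and Plscr5 the match lay outside the region.

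For the other motifs searched, 4 shares are given in the order of the 59 windows, the 166 windows at other regions held by exactly 3 CT26 libraries, the 15896 windows at any region and all windows. GAS was in 11.9, 10.8, 6.63 and 8.33%. The TEAD letters GGAATG were in 10.2, 13.3, 12.5 and 14.6%, and the NKX2 letters CAAGTG in 13.6, 15.7, 11.4 and 13.5%. The FOX letters TGTTTNC were in 13.6, 21.1, 15.3 and 20.6%, and the C/EBP letters TTGCNNAA in 6.78, 15.7, 8.74 and 10.9%. The NF-kB letters (GGG, 5 bases of any kind, CC), a loose pattern, were in 49.2, 54.8, 67.8 and 51.1%. Both strands were searched for each motif, and a match is a description of letters, not a bound site. In 3 further windows (9930111J21Rik1, Cxcl14 and Ttyh1) the ISRE core lay in the window but outside the region.

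The lengths under peaks at these promoters covered the range of 4T1 patterns. The Gm12250 region (chr11:58182981-58184229) held 326, 748 and 1249 bp under peaks in CT26 Niche replicates 1 to 3, none in CT26 Distal, 301, 341 and 694 bp in 4T1 Distal and 859, 1026 and 959 bp in 4T1 Niche. Every 4T1 Niche library was thus above every 4T1 Distal library there. The Parp11 region (chr6:127446355-127448499) held 1015, 432 and 290 bp in CT26 Niche, 373, 895 and 571 bp in 4T1 Distal and 1159, 2098 and 987 bp in 4T1 Niche, again without overlap between the 4T1 sites.

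Stat4 and Calhm6 differed from that pattern. The Stat4 region (chr1:52008130-52009194) held 728, 376 and 745 bp in CT26 Niche, 334, 228 and 253 bp in 4T1 Distal and 307, 271 and 367 bp in 4T1 Niche, where the 4T1 sites overlapped. At Calhm6 (chr10:34127495-34128083), 1 of the 6 4T1 libraries, a niche library, had a peak (496 bp), beside 254, 248 and 243 bp in CT26 Niche. The Ppp1r10 region (chr17:35918781-35919206) had peaks of 423, 267 and 198 bp in CT26 Niche and none in the other 9 libraries. The hairpin of Mir1894, a microRNA gene, lies within 1 kb of it.

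Of the 8 highest-ranked regions at a promoter window, 2 more ordered the 4T1 sites without overlap. Over the 46053 regions held by all 6 4T1 libraries, 12.6% were longer in every niche than in every distal library. That share does not cover Themis2, where 1 of the 4T1 Distal libraries had no peak. The region at the start of Themis2, a signalling adaptor gene of leukocytes (chr4:132795961-132796839), held 307, 757 and 468 bp in CT26 Niche, 0, 365 and 234 bp in 4T1 Distal and 468, 602 and 672 bp in 4T1 Niche. A region 13582 bp from Ccn1, a YAP target gene of the matricellular family, overlapped the start of a gene model (chr3:145632663-145633389) and held 575, 586 and 570 bp in CT26 Niche, 465, 297 and 187 bp in 4T1 Distal and 480, 539 and 540 bp in 4T1 Niche. At Fam78a (chr2:32083178-32084837) the 4T1 sites overlapped, with 726, 555 and 315 bp in 4T1 Distal and 548, 404 and 556 bp in 4T1 Niche, beside 630, 1298 and 721 bp in CT26 Niche.

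The 4T1 patterns of the regions are given by count. By the number of 4T1 libraries that held them, from none to 6, the regions numbered 14, 34, 31, 18, 49, 295 and 570. The most frequent pattern after all 6 libraries was all 3 4T1 Niche and 2 of the 3 4T1 Distal libraries, with 253 regions. Another 41 were in 2 niche and 2 distal libraries. More distal than niche libraries of 4T1 held 42 regions (2 niche and 3 distal), 18 (1 and 2), 9 (0 and 1), 8 (1 and 3) and 3 (0 and 2), and none was in all 3 distal libraries alone. The leaving out removed 32, 47, 82 and 131 regions with 2 niche and 0 distal, 2 and 1, 3 and 0, and 3 and 1 4T1 libraries.

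**Figure D1:**
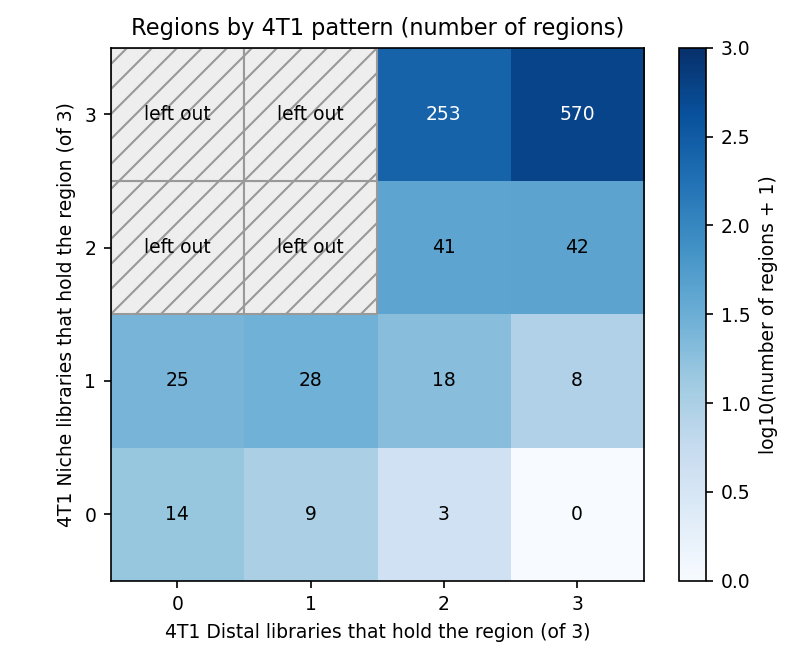
Number of the 1011 regions by how many of the 3 4T1 Niche libraries (vertical axis) and 3 4T1 Distal libraries (horizontal axis) held them; colour is log10 of the number plus 1, and hatched cells are patterns left out by the rule. The 2 fullest cells, 570 and 253 regions, have all 3 niche and at least 2 distal libraries.

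Other sets of regions give the scale. Of the 3360 other regions that exactly 3 of the 6 CT26 libraries held, 38.7% were in all 6 4T1 libraries and 75.4% in at least 2 4T1 Distal libraries. No peak in any 4T1 library was found for 1.90% of them.

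Whether 4T1 libraries follow the same order was tested on the 1303 regions, which were chosen without the 4T1 libraries. The 4T1 Distal libraries held 71.0, 68.8 and 67.8% of them (69.2 ± 1.64%, SD, n = 3) and the 4T1 Niche libraries 92.2, 88.6 and 88.6% (89.8 ± 2.11%). All 3 niche libraries were above all 3 distal libraries. The difference was 20.6 percentage points (two-sided exact permutation test over libraries, p = 0.1, the smallest that 3 against 3 allows; adjusted p = 0.1 over 6 tests).

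The 4T1 Niche lists were longer (65373 ± 1597 peaks) than the 4T1 Distal lists (57404 ± 976), so the share of all regions held is given as reference. All merged regions were held at 67.3 ± 1.44% by 4T1 Distal and 77.1 ± 1.69% by 4T1 Niche. Divided by that share, the 1303 regions stood at 1.03 ± 0.0104 in 4T1 Distal and 1.17 ± 0.0109 in 4T1 Niche, a difference of 0.138 (exact permutation p = 0.1). That difference was 0.0579 without CT26 Distal replicate 1, 0.0423 without CT26 Distal replicate 3 and 0.0441 with only peaks of -log10 q of at least 5 (exact permutation p = 0.1, 0.1 and 0.2). After the leaving out, the 1011 regions were held at 83.3 ± 0.976% and 89.5 ± 2.35%, values that the rule itself narrowed.

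**Figure D2:**
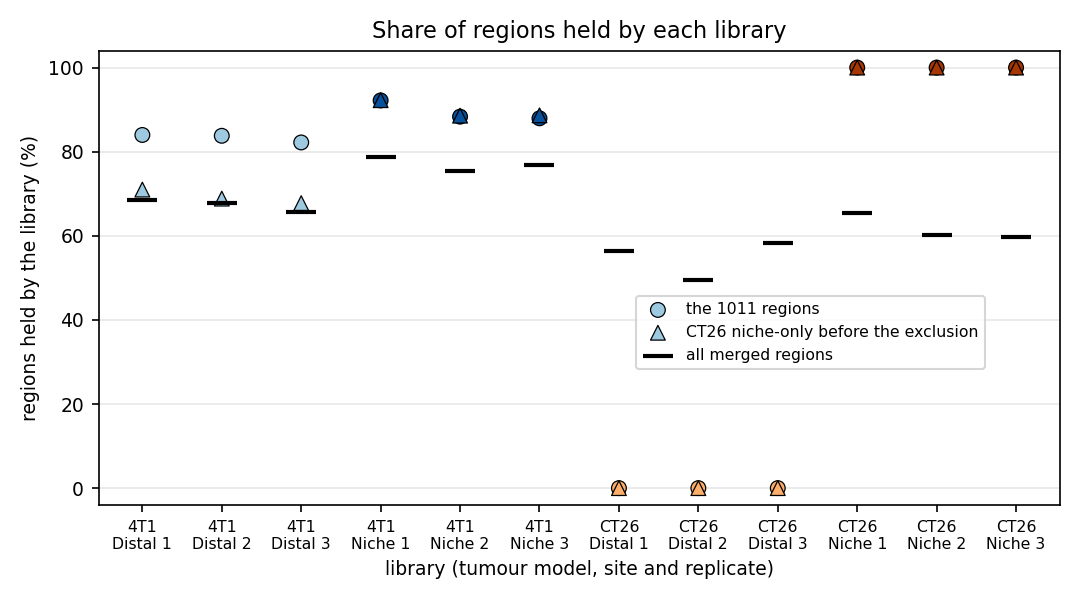
Percent of regions held by each of the 12 libraries: circles, the 1011 regions; triangles, the 1303 regions before the leaving out; black bars, all merged regions. The triangles lie near the bars in 4T1 Distal (67.8 to 71.0%) and above them in 4T1 Niche (88.6 to 92.2%); CT26 values of 0 and 100% are set by the rule.

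The 570 regions held by all 6 4T1 libraries could not be touched by the leaving out, so their size in 4T1 was compared between sites. Their median length under peaks was 389, 407 and 381 bp in 4T1 Distal (392 ± 13.3 bp) and 525.5, 521 and 499.5 bp in 4T1 Niche (515 ± 13.9 bp). The niche libraries were 123 bp longer, without overlap (exact permutation p = 0.1, adjusted p = 0.1). The median fold enrichment, the signal of a broad peak relative to background as the authors' peak caller wrote it, was 3.54, 3.79 and 3.71 in 4T1 Distal and 4.07, 4.01 and 4.07 in 4T1 Niche, a difference of 0.369 (exact permutation p = 0.1).

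Over all 46053 regions that the 6 4T1 libraries shared, the same medians lay closer together. Their length was 782 ± 27.7 bp in 4T1 Distal and 830 ± 27.1 bp in 4T1 Niche, and their fold enrichment 5.20 ± 0.0103 and 5.12 ± 0.141. As a ratio to these medians, the length of the 570 regions was 0.502 in 4T1 Distal and 0.621 in 4T1 Niche, and their fold enrichment 0.708 and 0.791 (each exact permutation p = 0.1). The 570 regions were thus shorter and lower in fold enrichment than the shared regions as a whole at both sites, and closer to them in the niche.

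Region by region, 173 of the 570 (30.4%) were longer in all 3 4T1 Niche libraries than in all 3 4T1 Distal libraries, where the share over all 46053 shared regions was 12.6%. The reverse order held in 7 of the 570 (1.23%), against 3.06%, and in the other 390 the sites overlapped. By fold enrichment, 133 (23.3%) were higher in every niche library, against 5.66% of all shared regions, and 18 (3.16%) lower, against 11.7%. Among the 1300 shared regions of the other group held by exactly 3 CT26 libraries, the shares with the niche above were 14.5% by length and 9.23% by fold enrichment. These shares are counts of regions within the same 6 libraries and carry no test. No such share was taken for regions that fewer than 6 4T1 libraries held, several named regions among them.

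**Figure D3:**
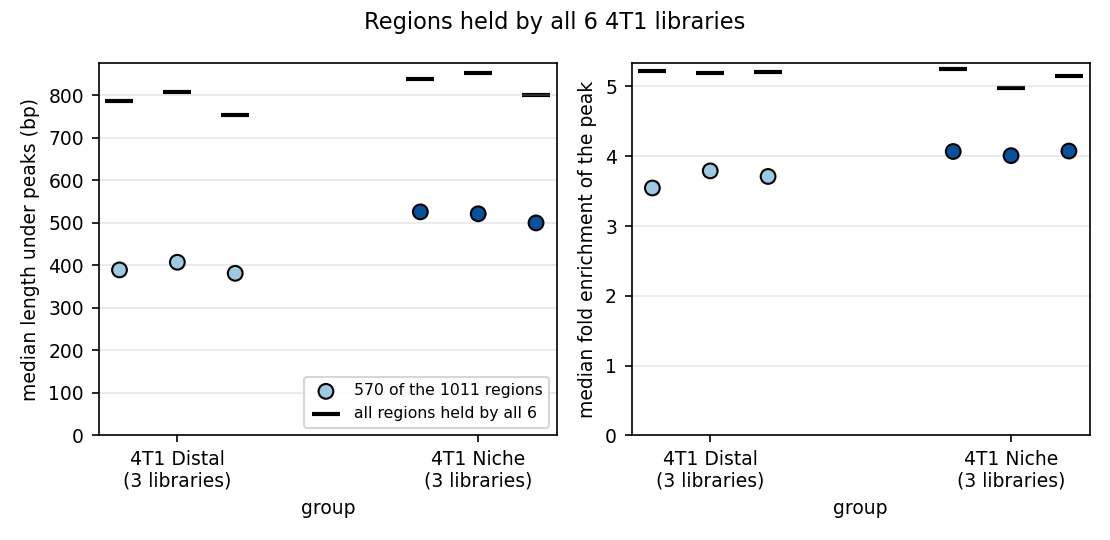
Median length under peaks (left, bp) and median fold enrichment (right) in each 4T1 library: circles, the 570 regions held by all 6 4T1 libraries; black bars, all 46053 regions held by all 6. The circles lie at 381 to 407 bp in 4T1 Distal and 499.5 to 525.5 bp in 4T1 Niche, below the bars at both sites.

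The regions were small peaks in the libraries that define them. Strength was taken as the percentile of a region's strongest peak by -log10 p within its own list. The median percentile was 24.9, 20.3 and 18.7 in CT26 Niche replicates 1 to 3, and no region was in the top 10% of any of these lists. Between 92.6 and 95.5% of the regions lay in the lower 50% of the list. Their median fold enrichment was 3.70, 3.40 and 3.68, against library medians of 4.58, 4.30 and 4.59, and their median length under peaks was 410, 340 and 342 bp. Averaged over the 3 libraries, the percentile ran from 0.891 to 72.5 with a median of 21.0, and 35 regions (3.46%) reached 50.

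Strength was set beside the number of 4T1 libraries that shared a region. The median of the mean percentile was 11.2, 14.7, 13.3, 14.0, 15.3, 19.3 and 23.8 for regions in none to 6 4T1 libraries. It was thus flat from 1 to 4 libraries and higher in the groups with 5 and 6. The median length of the merged region was 430.5 bp with no 4T1 library and 760.5 bp with 6, although more contributing libraries can lengthen a merged region. These are descriptions of regions from the same lists, with no test.

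**Figure D4:**
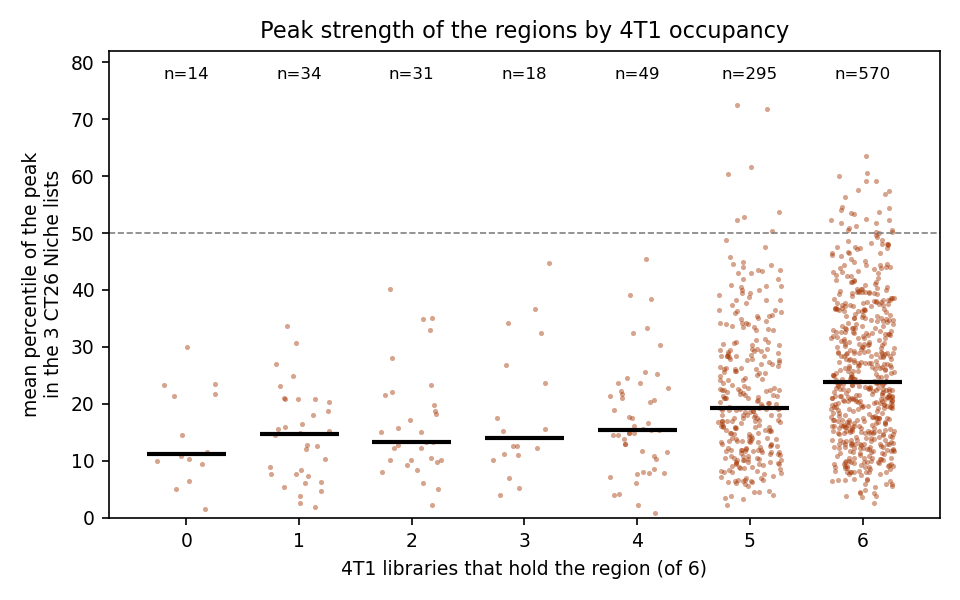
Mean percentile of each region's strongest peak in the 3 CT26 Niche lists (vertical axis) by the number of 4T1 libraries that hold the region (horizontal axis); each point is a region, bars are medians, the dashed line marks the 50th percentile. The medians are 11.2 with no 4T1 library, 13.3 to 15.3 with 1 to 4, 19.3 with 5 and 23.8 with 6, and most points lie under the line.

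Just outside the rule were regions with 1 library less on either side. The 2302 regions in all 3 CT26 Niche and 1 CT26 Distal library had a median length of 778 bp, the 2505 regions in 2 CT26 Niche and no CT26 Distal library 586 bp, and the 1303 regions inside it 695 bp. The opposite pattern, all 3 CT26 Distal and no CT26 Niche library, counted 114 regions (0.136% of all). The CT26 lists differed in length, with 48263, 42067 and 50093 peaks in CT26 Distal and 55529, 51430 and 51005 in CT26 Niche. The lists hold no read counts, so depth is unknown, and lower depth cannot be told apart from fewer open sites. Nor can a bulk list tell more cells with an open site from a site more open in each cell.

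Cutting every list to its 42067 highest peaks, the length of the shortest, left 225 of the 1011 regions (22.3%) in the set under the same rule. Among the 570 regions in all 6 4T1 libraries 166 were kept, and among the 14 in none 1 was kept, the Ppp1r10 region. With only peaks of -log10 q of at least 2, 552 (54.6%) were kept, and at 5, 25 (2.47%).

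The regions lay away from gene ends and mostly inside genes. Within 1 kb of either end of a protein-coding gene were 74 regions (7.32%, interval 5.87 to 9.09%), inside a gene 574 (56.8%) and outside genes 363 (35.9%). All merged regions divided into 17.9, 48.2 and 33.9%, and the other 3360 regions held by exactly 3 CT26 libraries into 7.74, 53.7 and 38.6%. The median region was 712 bp long (267 to 4064 bp), against 768 bp for all regions. The nearest CT26 Distal peak was a median of 5997 bp away, and 42 regions (4.15%) had one within 1 kb. The regions were scattered: the median distance to another of them was 473509 bp and none had another within 1 kb. Per 1000 merged regions they numbered from 7.74 on chromosome 7 to 16.3 on X.

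The 12 strongest regions were all held by 5 or 6 4T1 libraries. The first in rank lay 73454 bp from Zfp36l2, which encodes an RNA-binding protein of mRNA decay (chr17:84110003-84110470), with 467, 258 and 251 bp under peaks in CT26 Niche, 0, 243 and 259 bp in 4T1 Distal and 324, 467 and 396 bp in 4T1 Niche. Every 4T1 Niche library exceeded every 4T1 Distal library there.

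Inside Ankle2, a nuclear envelope protein gene, the region chr5:110243690-110244612 held 587, 590 and 637 bp in CT26 Niche, 632, 421 and 625 bp in 4T1 Distal and 768, 923 and 823 bp in 4T1 Niche. The region inside Dysf, the gene of the membrane repair protein dysferlin (chr6:84173516-84173976), held 235, 392 and 222 bp in CT26 Niche, 200, 0 and 191 bp in 4T1 Distal and 266, 373 and 424 bp in 4T1 Niche. Both again ordered the 4T1 sites without overlap. Near Bag3, a co-chaperone gene, the region chr7:128553159-128553862 lay 6178 bp from the gene and held 466, 411 and 358 bp in CT26 Niche, 304, 321 and 324 bp in 4T1 Distal and 376, 373 and 369 bp in 4T1 Niche. Others among the 12 were inside Synrg, Tmem116, Csnk1g3 and Cd6, and 17616 to 31787 bp from Cks2, Map4k3 and Cdc5l. Regions at Synrg, Cdc5l, Cks2 and Cd6 overlapped between the 4T1 sites, while those at Tmem116, Csnk1g3 and Map4k3 were longer in every niche library. Over the 46053 regions held by all 6 4T1 libraries, 12.6% were longer in every niche library. That share does not cover the regions at Zfp36l2, Dysf and Map4k3, which each lacked a peak in 1 4T1 Distal library.

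The 14 regions without a 4T1 peak were the only ones for which the working name held by the lists, and they were weak. Their mean percentiles ran from 1.59 to 29.9. Behind Ppp1r10 came a region 14921 bp from Sinhcaf, a gene of the Sin3 deacetylase complex (chr6:148961391-148961825), with 225, 285 and 423 bp in CT26 Niche. A region 1316 bp from Ndnf (chr6:65669915-65670295) held 381, 240 and 222 bp, and had a CT26 Distal peak 790 bp away. One inside Dlgap1, a synaptic scaffold gene (chr17:70818113-70818420), held 308, 223 and 196 bp. A region 5170 bp from Nampt, the enzyme gene of NAD salvage (chr12:32858539-32859210), held 672, 349 and 391 bp. The remaining 3 lay 6165 bp from Prxl2a, 17749 bp from Fthl17b and 204989 bp from Krr1.

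A region lay in the locus of 857 of 21631 protein-coding genes (3.96%), a locus being the gene and 10 kb on each side. Single regions accounted for 805 of these loci, 47 had 2 regions and 5 had 3: Cobl, Mrtfa, Vav2, Ppp3ca and Prkag2, genes of actin regulation or signalling. Long genes are among them, with regions up to 131152 bp from the nearest gene end in Ppp3ca and 105410 bp in Prkag2. The number of regions per locus was not set against gene length. In Mrtfa, a coactivator gene that responds to actin, 1 of its regions (chr15:81096322-81097752) held 407, 375 and 205 bp in CT26 Niche, 344, 312 and 392 bp in 4T1 Distal and 1415, 1264 and 1248 bp in 4T1 Niche. That region was longer in 4T1 Niche by more than the spread within either site. The other Mrtfa regions overlapped between the 4T1 sites. A higher-ranked one (chr15:81137117-81138096) held 665, 777 and 887 bp in 4T1 Distal and 705, 972 and 699 bp in 4T1 Niche. The last (chr15:81032849-81033394) held 378, 302 and 0 bp in 4T1 Distal and 336, 546 and 368 bp in 4T1 Niche. A region in Cobl, an actin nucleator gene (chr11:12434759-12435342), held 525, 532 and 545 bp in 4T1 Distal and 571, 522 and 544 bp in 4T1 Niche, also with overlap. The other 230 regions were in no locus.

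Over 30 gene lists, 21 of 408 listed genes (5.15%) had a region in their locus, against 3.96% of all protein-coding genes. Any merged region lay in the locus of 382 of the 408 listed genes and of 17390 of the 21631 protein-coding genes. The remaining genes could not have one of the regions described here, so the 2 shares are not on like terms. The lists were drawn up with earlier results of these data known, so their counts are descriptions. Interferon-inducible GTPases had 4 of 16 genes, TGF-beta signalling and epithelial-mesenchymal transition 3 of 18, and chromatin and DNA methylation 2 of 11. Transitional alveolar and p53 genes had 2 of 16, adhesion and matrix 2 of 18, and EGF and FGF signalling 2 of 24. No AT2 marker (of 20), AT1 marker (of 14), antigen presentation gene (of 15), NF-kB gene (of 22) or lipid synthesis gene (of 16) had one. Of the 23 regions at listed genes, 22 were held by 5 or 6 4T1 libraries and 14 by all 6.

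**Figure D5:**
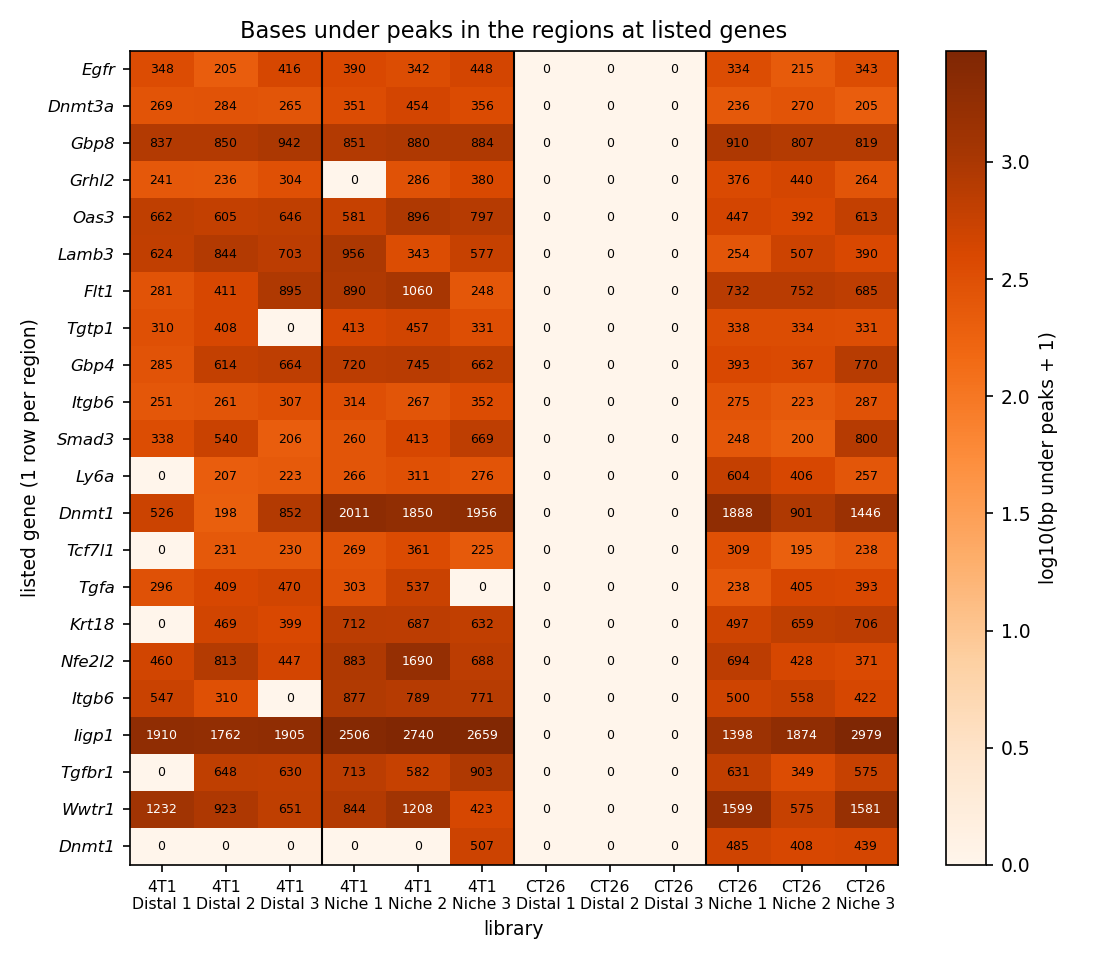
Length under peaks (bp, printed; colour is log10 of the length plus 1) of 22 of the 23 regions at listed genes in each of the 12 libraries, in order of mean percentile in CT26 Niche. CT26 Distal is empty by the rule, and every row but 1 has peaks in 5 or 6 of the 6 4T1 libraries.

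Interferon-inducible GTPases and their neighbours gave the most regions for the size of their list. The region at the end of Gbp8, a guanylate-binding protein gene (chr5:105053217-105054293), held 910, 807 and 819 bp in CT26 Niche, 837, 850 and 942 bp in 4T1 Distal and 851, 880 and 884 bp in 4T1 Niche. Its lengths were alike in the 9 libraries that held it, and its nearest CT26 Distal peak was 55437 bp away. At the end of Gbp4 (chr5:105139163-105139968) the lengths were 393, 367 and 770 bp in CT26 Niche, 285, 614 and 664 bp in 4T1 Distal and 720, 745 and 662 bp in 4T1 Niche. The 4T1 sites overlapped at both genes.

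At Iigp1, an immunity-related GTPase gene (chr18:60391161-60394587), the region was among the longest, with 1398, 1874 and 2979 bp in CT26 Niche, 1910, 1762 and 1905 bp in 4T1 Distal and 2506, 2740 and 2659 bp in 4T1 Niche. Every 4T1 Niche library was longer than every 4T1 Distal library there. The region 5405 bp from Tgtp1, another GTPase of that family (chr11:48979468-48979924), held 338, 334 and 331 bp in CT26 Niche, 310, 408 and 0 bp in 4T1 Distal and 413, 457 and 331 bp in 4T1 Niche, with overlap. That region is closer to another gene, 9930111J21Rik1, which lies 87 bp away and whose promoter window it overlaps. Of 27 interferon response genes, Oas3, an enzyme gene of the response to double-stranded RNA, had a region 2045 bp away (chr5:120779729-120780639), with 447, 392 and 613 bp in CT26 Niche, 662, 605 and 646 bp in 4T1 Distal and 581, 896 and 797 bp in 4T1 Niche. Before the leaving out, Ifit2, Ifit3, Ifih1 and Stat2 had one too.

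In TGF-beta signalling, a receptor and a signal transducer had regions. Tgfbr1, the type I receptor gene, had one inside it (chr4:47410832-47411763) with 631, 349 and 575 bp in CT26 Niche, 0, 648 and 630 bp in 4T1 Distal and 713, 582 and 903 bp in 4T1 Niche. Smad3, the gene of a transducer that enters the nucleus, had one with 248, 200 and 800 bp in CT26 Niche, 338, 540 and 206 bp in 4T1 Distal and 260, 413 and 669 bp in 4T1 Niche (chr9:63732355-63733189). Both overlapped between the 4T1 sites.

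Both kinds of DNA methyltransferase gene had regions. Inside Dnmt1, the maintenance enzyme (chr9:20943445-20945557), peaks covered 1888, 901 and 1446 bp in CT26 Niche, 526, 198 and 852 bp in 4T1 Distal and 2011, 1850 and 1956 bp in 4T1 Niche. The gap between the 4T1 sites was larger than the range within either. Another region 5111 bp from Dnmt1 (chr9:20901572-20902095) was the only one at a listed gene that a single 4T1 library held: 507 bp in 1 niche library, beside 485, 408 and 439 bp in CT26 Niche. Inside Dnmt3a, a de novo enzyme (chr12:3860742-3861195), the lengths were 236, 270 and 205 bp in CT26 Niche, 269, 284 and 265 bp in 4T1 Distal and 351, 454 and 356 bp in 4T1 Niche, again without overlap.

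Genes listed for epithelial repair and growth signals came next. Krt18, a keratin gene of simple epithelia, had a region 3449 bp away (chr15:102023898-102024767) with 497, 659 and 706 bp in CT26 Niche, 0, 469 and 399 bp in 4T1 Distal and 712, 687 and 632 bp in 4T1 Niche. Itgb6, the integrin subunit that activates TGF-beta, held 2 regions, and that at chr2:60639673-60640586 had 500, 558 and 422 bp in CT26 Niche, 547, 310 and 0 bp in 4T1 Distal and 877, 789 and 771 bp in 4T1 Niche. At this Itgb6 region and at that near Krt18 the 4T1 sites did not overlap. The higher-ranked Itgb6 region (chr2:60680433-60680893) held 275, 223 and 287 bp in CT26 Niche. It held 251, 261 and 307 bp in 4T1 Distal and 314, 267 and 352 bp in 4T1 Niche, with overlap. Egfr, with the region whose sequence is printed under Egfros, had 334, 215 and 343 bp in CT26 Niche, 348, 205 and 416 bp in 4T1 Distal and 390, 342 and 448 bp in 4T1 Niche, with overlap.

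Tgfa, a ligand of that receptor, Lamb3, a laminin chain gene, and Wwtr1, the gene of the YAP partner TAZ, each had a region inside the gene, as did Tcf7l1, a Wnt pathway repressor, and Grhl2, an epithelial transcription factor. The Wwtr1 region (chr3:57554073-57555883) held 1599, 575 and 1581 bp in CT26 Niche, 1232, 923 and 651 bp in 4T1 Distal and 844, 1208 and 423 bp in 4T1 Niche. The 4T1 sites overlapped there. Ly6a, the gene of the progenitor marker Sca-1, had a region 5553 bp away, with 604, 406 and 257 bp in CT26 Niche, 0, 207 and 223 bp in 4T1 Distal and 266, 311 and 276 bp in 4T1 Niche (chr15:75003584-75004239). Nfe2l2 and the endothelial gene Flt1 had regions 4069 and 2947 bp from the gene; the first overlaps an end of a neighbouring gene, Hnrnpa3. Of the 23 regions at listed genes, those at Gbp8 and Grhl2 were the 2 kept with lists of equal length.

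The length under peaks of whole loci was tested between the 4T1 sites over 16823 loci with limma, on log2 of the scaled length plus 500 bp. All 857 loci with a region were tested. Of these, 6 were higher in 4T1 Niche at a Benjamini-Hochberg adjusted p under 0.05, against 0.594% of all loci tested, and 1 was lower, against 0.0297%. The 7 are close to the background share of 0.624% in either direction. The median change was 0.01 over the 857 loci, 451 of them positive, and -0.05 over all 16823 loci, 6491 of them positive. For the 1097 loci of the 1303 regions before the leaving out, 10 were higher and 1 lower, with a median change of 0.03.

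The 3 loci that also passed whichever library was left out were Enox1, Hoxa2 and F830016B08Rik. Enox1, a cell surface oxidase gene, had 0.522, 0.622 and 0.524 kb under peaks in 4T1 Distal and 2.139, 1.872 and 2.157 kb in 4T1 Niche, a log2 change of 1.10 ± 0.13 (SE; limma adjusted p = 0.00346). Its region at the gene's start (chr14:77156277-77157862) supplied 522, 316 and 524 bp and 1058, 1058 and 856 bp of these, and 937, 1113 and 1586 bp in CT26 Niche. Hoxa2, a homeobox gene, had 0.554, 0.465 and 0.462 kb in 4T1 Distal and 1.648, 2.065 and 1.942 kb in 4T1 Niche, a change of 1.08 ± 0.10 (limma adjusted p = 0.000688). F830016B08Rik, a gene model beside Iigp1, had 0, 0.214 and 0.38 kb against 2.404, 2.405 and 2.466 kb, a change of 1.89 ± 0.22 (limma adjusted p = 0.00288). The fit pools the spread of all 4 groups. Enox1 and Hoxa2 had no peak in CT26 Distal, which adds no spread, so their limma p can be too small. None of the 3 passed under every peak setting. With lists of equal length Enox1 and Hoxa2 did not pass (limma adjusted p = 0.442 and 0.751), nor did Hoxa2 and F830016B08Rik at -log10 q of at least 2 (0.177 and 0.193) or Enox1 at 5 (0.838).

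The other 4 loci passed less firmly. Ppcdc, an enzyme gene of coenzyme A synthesis, changed by 0.57 ± 0.10 (limma adjusted p = 0.0350) and did not pass in 6 of the 12 fits that left out 1 library. Its region (chr9:57433149-57434160) held 386, 293 and 322 bp in 4T1 Distal and 750, 851 and 876 bp in 4T1 Niche. Hoxb7 changed by 0.92 ± 0.17 (limma adjusted p = 0.0444), with no peak in 4T1 Distal and 0.704, 0.646 and 0.32 kb in 4T1 Niche. Its region, at Hoxb8, was held by 1 4T1 library, so most of that locus's 4T1 peaks were elsewhere. Zfp791 changed by 0.59 ± 0.11 (limma adjusted p = 0.0444) and Cd101, which was lower in 4T1 Niche, by -0.46 ± 0.09 (limma adjusted p = 0.0494). Hoxb7, Zfp791 and Cd101 did not pass in 10, 10 and 11 of those 12 fits. A group without any peak has no spread, so limma's p for such a locus can be too small.

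In CT26, where the rule chose the regions, the same loci are given as values. Enox1 and Hoxa2 had no peak in CT26 Distal and 1.42 ± 0.359 and 0.800 ± 0.0301 kb in CT26 Niche (SD, n = 3). Cd101 had 3.47 ± 0.265 kb in CT26 Distal and 4.25 ± 0.125 kb in CT26 Niche, and Zfp791 0.839 ± 0.0605 and 1.02 ± 0.0329 kb.

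Markers of the sorted cells and of others were checked by peaks within 1 kb of the gene. Peaks in all 12 libraries were found at 19 of 20 AT2 markers and 13 of 14 AT1 markers. No library had a peak at 6 of 12 macrophage and monocyte markers (Csf1r and Adgre1 among them), 5 of 8 neutrophil markers, 6 of 10 lymphoid markers, or 3 of 11 fibroblast markers (Col3a1, Dcn and Lum). Other markers of these lists had a peak in all 12 libraries: 4 macrophage (Cd68, Spi1, Lyz1 and Fcgr1), 2 lymphoid, 3 fibroblast, 7 of 11 endothelial and 8 of 9 ciliated cell markers. Summed length at the general leukocyte list was 0.318 to 0.712 kb in CT26 Distal and 1.47 to 2.75 kb in CT26 Niche, and at the fibroblast list 2.67 to 5.28 kb and 7.24 to 10.5 kb. In 4T1 the leukocyte list had 1.54 to 2.63 kb in distal and 1.01 to 2.77 kb in niche libraries, and the fibroblast list 5.21 to 8.19 and 8.70 to 9.86 kb. The endothelial list had 13.9 to 16.2 kb in 4T1 Distal and 19.9 to 23.4 kb in 4T1 Niche, without overlap, and 11.3 to 13.8 and 12.1 to 17.4 kb in the CT26 sites. The AT2 list had 41.1 to 48.6 kb in CT26 Distal and 50.0 to 57.2 kb in CT26 Niche. In 4T1 it had 60.0 to 67.9 kb in distal and 69.0 to 77.4 kb in niche libraries, without overlap. The AT1 list had 43.8 to 47.5 and 48.3 to 54.1 kb there. Mammary, basal and ciliated lists were also higher in every 4T1 Niche than in every 4T1 Distal library. The club cell list was lower, and the macrophage, neutrophil, lymphoid, leukocyte and intestinal lists overlapped between the 4T1 sites. In CT26 the macrophage list had 4.255 to 4.627 kb in distal and 4.935 to 7.103 kb in niche libraries, without overlap. The AT1 list (32.3 to 35.7 and 39.3 to 48.5 kb) did not overlap there either. Nor did the ciliated list (12.1 to 12.8 and 13.0 to 15.3 kb). The lymphoid, club cell, basal, intestinal and mammary lists overlapped between the CT26 sites, and the neutrophil list had no peak in CT26. The part of other cells and of list length in the regions was not tested.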

How the data were processed

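Peak lists of 12 Omni-ATAC-seq libraries of mouse AT2 cells were used. The authors deposited 1 list of broad peaks per library in GRCm38 coordinates, and MACS2 and bedtools are named, without versions, per the submitters' processing notes; no source used here gives the aligner or the filters. From the deposited lists came peak start and end in bp, fold enrichment (a ratio), -log10 p and -log10 q, as the authors' caller wrote them. No deposited -log10 q was under 1. The lists give no read counts, so depth is unknown.

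Peaks on 19 autosomes and X were merged at 1 bp of overlap, and any peak overlapping a region made its library a holder of it. The regions and gene lists were chosen with earlier results of these data known. Regions were ranked by the mean percentile of -log10 p over the CT26 Niche lists. Named are the 12 highest, the 8 highest without a 4T1 peak, the 6 highest in all 6 4T1 libraries, those at listed genes, genes with 3 or more, loci that passed in 4T1, and the 8 highest at promoters, of which gene models and some others are counted only. Groups of 3 libraries were compared by two-sided exact permutation tests. Loci (RefSeq GRCm38.p6 protein-coding genes with 10 kb flanks; the table has no strand) were modelled as 4 group means (limma 3.58.1, R 4.3.3), with 8 residual degrees of freedom, after scaling to the mean covered length, where at least 3 libraries had a peak. Calculations used Python 3.11.15, pandas 2.3.3 and scipy 1.17.1, and the fit was tested on simulated data.

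Alternatives were stricter peaks, lists of equal length, other overlap, flank, added length, scaling and filter settings, a replicate block, and leaving out each library. Some regions that the naming rule takes are not reported here.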

Additional observations from a re-analysis of the deposited data

How the results depend on the processing

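With lists of equal length, 452 regions met the rule, 11.1% of them without a 4T1 peak. Of the 367 loci of these regions, 0 passed in 4T1 with limma. An unadjusted limma p under 0.05 was found for 51 of the 367, beside 1446 of all 16060 loci. Over all 16060 loci 36 were higher and 9 lower at the adjusted threshold. F830016B08Rik, no longer among the 367, passed (log2 change 1.27, limma adjusted p = 0.0115). With -log10 q of at least 5, 0.434% had no 4T1 peak and 10.5% lay within 1 kb of a gene end. At that setting 1 of 789 loci passed, beside 43 higher and 1 lower of all 15659. Of the 1011 regions, 21.9% lay within 5 kb of a gene end. With 2 kb flanks 3 of 640 loci with a region passed, beside 81 higher and 3 lower among all 15821 tested. With 50 kb flanks 27 of 1851 passed, beside 159 higher and 12 lower of 18330. Without scaling 48 of 857 passed, beside 565 higher and 4 lower of 16823. With a peak required in at least 6 libraries 3 of 852 passed, beside 43 higher and 1 lower of 16404. Without scaling the median change of all loci was 0.12 and that of the loci with a region 0.19. With the replicate number as a block, 3 of 857 passed, all higher, beside 72 higher and 5 lower of all 16823 loci. Enox1, Hoxa2 and F830016B08Rik were these 3. The samples share only a number: deviations of same-numbered distal and niche libraries correlated at 0.0892, 0.0374 and 0.0285 in 4T1, each sample's highest, and at 0.0113, 0.0175 and -0.0441 in CT26, where this did not hold for every sample.

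Leaving out 1 library gave 802 to 2064 regions, 0.845 to 3.27% without a 4T1 peak, 6.50 to 9.06% near a gene end and 2 to 10 loci. The number of regions rose to 1775 without CT26 Distal replicate 1, 2064 without CT26 Distal replicate 3, 1711 without CT26 Niche replicate 2 and 1714 without CT26 Niche replicate 3, where the rule asks for fewer libraries. Fewest loci, 2, passed without 4T1 Distal replicate 2 or 3. These were 2 of 680 and 2 of 707, beside 57 and 47 higher and 1 and 0 lower of all 16804 and 16816 loci. The difference between 4T1 sites in the share of the 1303 regions held kept its direction in 18 of 18 alternatives (14.4 to 23.4 percentage points when 1 library was left out; divided by the share of all regions held, 0.0423 to 0.189), and the difference in length of the regions held by all 4T1 libraries, whose alternatives were added after seeing the data, in 17 of 17 (58.3 to 133.7 bp). The exact permutation tests behind both cannot go below p = 0.1 with 3 libraries against 3, and depth could not be checked.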

Other observations

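Regions with the same rule in the other tumour model were counted for scale: 1822 regions were called in all 3 4T1 Niche and no 4T1 Distal library after the same leaving out, and 868 regions had the pattern of both models. Of the 1822, 6.31% lay within 1 kb of a gene end, 51.6% inside a gene and 42.0% outside, with a median length of 542.5 bp.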
